A study of Mus musculus with 9 samples.

Results

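The 10 genes described here make hyaluronan, bind it or break it down: Has1, Has2, Has3, Ugdh, Hyal1, Hyal2, Cemip, Tnfaip6, Vcan and Cd44. They were chosen by name, with earlier results of these data known, and found as 10 of the 49548 genes in the deposited tables, 1 row each. The libraries were 3′ mRNA sequencing libraries of synovial fibroblasts (SFs), the mesenchymal cells of the joint lining, cultured from ankles of CBA C57BL/6J mice aged 8 weeks, with CD45+ cells depleted at passage 1 in every group. WT SFs and hTNFtg SFs, which carry a human TNF transgene and come from mice with spontaneous polyarthritis, gave 3 libraries each and are labelled as not treated, whereas the study's methods describe vehicle for 48 hours. A further 3 libraries came from hTNFtg SFs given infliximab, an antibody that blocks human TNF, at 1 µg/mL for 48 hours. The transgene itself is human and was not analysed here, and which cells of the mouse express it cannot be read from these cultures.

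Hyaluronan is a long unbranched sugar chain made at the plasma membrane from UDP-glucuronic acid and UDP-N-acetylglucosamine, and it lubricates the joint and fills the matrix of the synovium. The synthases Has1, Has2 and Has3 extrude the chain, and Ugdh makes the UDP-glucuronic acid they use. Versican (Vcan) and TSG-6 (Tnfaip6) organise the chain outside the cell, CD44 holds it at the cell surface, Cemip and Hyal2 cut long chains, and Hyal1 cuts fragments in the lysosome. Inflamed synovium is known for changes in the amount and the size of its hyaluronan, which RNA libraries do not measure.

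By the rule used below, 4 members were raised in the hTNFtg libraries, namely Has1, Cemip, Vcan and Cd44. The 250 bases before the start site of each are given so that their promoters can be compared, from RefSeq on GRCm38.p6, the assembly also known as mm10, and in the direction of transcription. Capitals mark TATAAA in Cemip, the only match among the letters searched.

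Has1, chr17:17855189-17855438, minus strand: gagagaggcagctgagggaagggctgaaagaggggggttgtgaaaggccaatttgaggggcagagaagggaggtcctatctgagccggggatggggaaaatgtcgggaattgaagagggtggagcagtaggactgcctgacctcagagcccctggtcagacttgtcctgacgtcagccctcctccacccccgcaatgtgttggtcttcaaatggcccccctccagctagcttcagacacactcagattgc
Cemip, chr7:84086506-84086755, minus strand: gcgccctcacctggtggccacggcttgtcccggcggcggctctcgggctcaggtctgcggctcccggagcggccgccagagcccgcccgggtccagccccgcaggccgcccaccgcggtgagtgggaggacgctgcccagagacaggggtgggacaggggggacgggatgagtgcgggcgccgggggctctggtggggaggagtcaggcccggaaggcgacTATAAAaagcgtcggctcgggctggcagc
Vcan, chr13:89742513-89742762, minus strand: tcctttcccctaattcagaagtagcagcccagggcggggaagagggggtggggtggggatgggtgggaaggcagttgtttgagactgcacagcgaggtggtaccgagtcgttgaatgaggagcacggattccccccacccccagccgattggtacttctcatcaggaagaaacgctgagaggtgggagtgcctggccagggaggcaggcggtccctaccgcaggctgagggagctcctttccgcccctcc
Cd44, chr2:102901666-102901915, minus strand: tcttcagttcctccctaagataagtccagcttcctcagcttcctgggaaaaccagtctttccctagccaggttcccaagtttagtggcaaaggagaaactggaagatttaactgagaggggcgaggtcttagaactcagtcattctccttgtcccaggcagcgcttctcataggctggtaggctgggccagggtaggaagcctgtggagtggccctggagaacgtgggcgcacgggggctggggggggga

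The set of promoter sequences used here had an entry for 8 members and none for Has2 and Has3. On both strands of the 250 bases, these 8 were searched for TATAAA, for TGANTCA, the letters bound by AP-1, and for the NF-kB consensus. Cemip had TATAAA from 29 bases before the start, which 12.4% of 32851 mouse promoters of the same length also hold. Tnfaip6, named for its induction by TNF, had TGAGTCA from 142 bases before the start, and TGANTCA occurs in 6.75% of all promoters. That start, from RefSeq, lies inside the span the gene has in the deposited tables, while the match lies before that span. Hyal2 had the NF-kB consensus from 238 bases before the start, within the span its gene has in the deposited tables, and 3.90% of all promoters hold this consensus. The other members searched held no match to any of these letters. The matches outside the set above are shown in capitals, with 10 bases to each side. Binding at them was not tested, and neither gene passed the rule in hTNFtg.

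Tnfaip6, chr2:52037961-52037987, plus strand: ccaatgcaaaTGAGTCAgagggcttgc
Hyal2, chr9:107568915-107568944, plus strand: taaaaccagcGGGAATCCCCattccaggag

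Values are the authors' normalized counts, in whole numbers, and the reads given here are estimates that take 1 scaling factor per library, which the values could test in hTNFtg replicate 1 and infliximab replicate 1 only. Because 3′ reads do not grow with the length of a transcript, levels can be compared between genes. One hTNFtg library, replicate 1, was shallow, with about 613348 reads on genes against 6.24 to 14.7 times as many in the other 8, so that 3 reads stand at 18.7 normalized counts there and at 1.60 to 3.31 elsewhere. The 10 fibroblast markers summed to 37530 to 44872 in WT, 33241 to 40221 in hTNFtg and 31824 to 38899 with infliximab, led by Col1a1 and Col1a2. Among them, all hTNFtg libraries lay above all WT libraries for Pdpn (1987 to 5582 against 852 to 982), Thy1 (527 to 797 against 354 to 414) and Prg4 (382 to 554 against 299 to 375), and below them for Col1a1 (14635 to 16542 against 16872 to 23868), Lum (193 to 230 against 284 to 1158) and Pdgfrb (462 to 591 against 787 to 1172). The 10 leukocyte markers summed to 181 to 529 in WT, 2720 to 6021 in hTNFtg and 1678 to 3246 in infliximab libraries, led by Lyz2, while Ptprc, which encodes CD45, stood at 0 to 3 in WT, 9 to 31 in hTNFtg and 8 to 28 with infliximab. The 9 chondrocyte markers in the tables summed to 6232 to 9378 in WT, 554 to 1218 in hTNFtg and 912 to 2533 with infliximab. These sums rest on Comp, at 4373 to 7288, 299 to 848 and 573 to 1933, and Sox9, at 1160 to 1939, 174 to 272 and 281 to 572. Col2a1, the defining collagen of cartilage, overlapped at 51 to 94, 37 to 88 and 49 to 133. At low counts, Col9a1 (1 to 19 in WT, 0 in every hTNFtg library) and Acan (5 to 16 against 0 to 1) were also lower in hTNFtg without overlap. Hapln1 (6 to 24 against 0 to 7), Matn3, Col11a2 and Matn1 overlapped. The 8 hepatocyte markers summed to 785 in infliximab replicate 3, led by Alb and Trf, against 18 to 61 in the other 8 libraries. Since several members are also expressed by leukocytes (Cd44, Vcan) or chondrocytes, these sums stand beside every difference below, their part in it was not tested, and more cells of a type cannot be told apart from more RNA per cell.

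**Figure D1:**
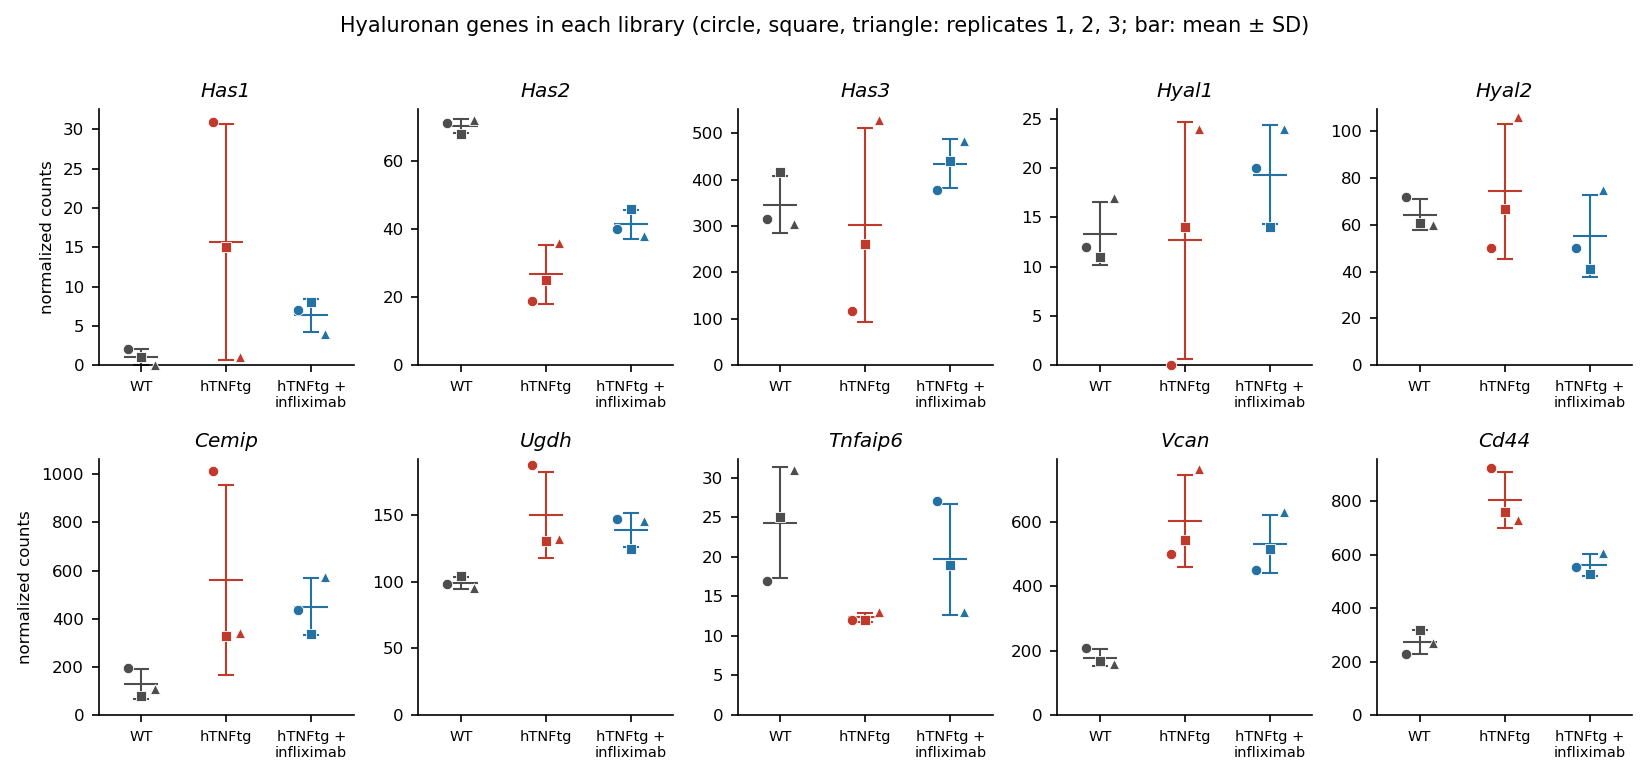
Normalized counts of the 10 hyaluronan genes on the y axis, 1 panel per gene with its own scale from 0, in WT, untreated hTNFtg and infliximab-treated hTNFtg SFs. Symbols are the 3 libraries of a group, and the bars give mean ± SD. The hTNFtg points of Vcan (498 to 763) and Cd44 (728 to 922) lie above all WT points, those of Has2 (19 to 36) lie below them, and Has3 and Hyal1 spread across the WT range.

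To ask which parts of the pathway differ in arthritic SFs, hTNFtg and WT libraries were compared. Of the 10 members, Has1, Cemip, Vcan and Cd44 rose and Has2 fell, by a rule that asks for an unadjusted P under 0.05 together with a difference of 1 or more on the log2 scale. That is 5 of 10, where the same rule called 6.39% of the 28522 genes tested, 3.35% as raised and 3.04% as lowered. Among genes with a mean of at least 10 normalized counts, it called 4 of 9 members and 1183 of 13634 genes. The members were chosen with earlier results of these data known, so these counts describe them and are no test of the list. At a Benjamini-Hochberg adjusted p under 0.05, 2 of 10 members were called (Vcan and Cd44), against 0.48% of all genes. That count was 4 by edgeR on approximate reads (with Has1 and Cemip), 4 with array quality weights (with Has2 and Cemip), and 0 with any 1 library left out. The members' median log2 fold change was 0.36 and ran from -1.41 to 2.47, beside a median of 0.00 over all genes. All fold changes are on the scale of log2(normalized count + 1), where those of low genes depend on the pseudocount of 1, and come from limma.

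Vcan (ENSMUSG00000021614, mm10 chr13:89655312-89742509, minus strand) encodes versican, a large proteoglycan of the matrix whose amino-terminal domain binds hyaluronan. It stood at 209, 168 and 157 normalized counts in WT replicates 1, 2 and 3, at 498, 543 and 763 in untreated hTNFtg SFs and at 449, 515 and 629 in treated ones. Every library of both hTNFtg groups lay above every WT library, and the infliximab range overlapped the untreated one. The mean rose from 178 ± 27.4 in WT to 601 ± 142 in hTNFtg (SD, n = 3), a ratio of 3.38. The log2 fold change was 1.74 (SE 0.29, 95% interval 1.09 to 2.38, limma adjusted p = 0.0274), the lowest p among the members. With any 1 library left out it stayed between 1.55 and 1.86 and within the rule, while its adjusted p then ran from 0.0818 to 0.411. Counts per gene do not separate the 6 complete coding transcripts of Vcan.

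Cd44 (ENSMUSG00000005087, chr2:102811141-102901665, minus strand) encodes the main surface receptor for hyaluronan on fibroblasts and leukocytes. Its values were 228, 319 and 269 in WT, 922, 759 and 728 in hTNFtg and 552, 526 and 605 with infliximab. No group overlapped another, with the infliximab libraries between the other groups. The mean was 272 ± 45.6 in WT and 803 ± 104 in hTNFtg, 2.95 times as high. The log2 fold change was 1.56 (SE 0.28, limma adjusted p = 0.0385), it stayed between 1.44 and 1.69 with any library left out, and its adjusted p then ran from 0.0810 to 0.421. The 8 complete coding transcripts of Cd44, which differ by variable exons, were not separated.

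Cemip (ENSMUSG00000052353, chr7:83932857-84086502, minus strand) encodes a hyaluronan-binding protein needed for the cutting of long chains by skin and synovial fibroblasts. It stood at 197, 81 and 106 in WT, at 1015, 327 and 340 in hTNFtg and at 437, 338 and 574 with infliximab. Again no hTNFtg library reached down to the WT range, but replicate 1, the shallow library, stood far above the other hTNFtg libraries. The mean was 128 ± 61.0 in WT and 561 ± 394 in hTNFtg, a ratio of 4.38, or 2.61 without that replicate. The log2 fold change was 2.01 (SE 0.47, limma adjusted p = 0.114), and 1.48 without hTNFtg replicate 1, still within the rule.

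Among the synthases, Has2 and Has1 were called in opposite directions. Has2 (ENSMUSG00000022367, chr15:56665627-56694539, minus strand), the synthase that mice need during development and that makes very long chains, was steady in WT at 71, 68 and 72 normalized counts. It stood at 19, 25 and 36 in hTNFtg and at 40, 46 and 38 with infliximab. All hTNFtg libraries were below all WT libraries, and the infliximab libraries lay between them without overlap. The mean fell from 70.3 ± 2.08 in WT to 26.7 ± 8.62 in hTNFtg, which makes the WT mean 2.64 times as high. The log2 fold change was -1.41 (SE 0.40, limma adjusted p = 0.218). Without hTNFtg replicate 1, where Has2 rests on 3 reads, it was -1.20 and within the rule, as it was with each other library left out. The gene on its opposite strand, Has2os, does not cover the 3′ end of Has2 and stood at 3 to 18 in the 9 libraries.

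Has1 (ENSMUSG00000003665, chr17:17843328-17855188, minus strand) was the lowest member in all WT libraries, at 2, 1 and 0 normalized counts, all within 3 reads. It stood at 31, 15 and 1 in hTNFtg, or about 5, 18 and 2 reads, and at 7, 8 and 4 with infliximab, or about 6, 9 and 5 reads. The hTNFtg libraries therefore overlapped the WT range through replicate 3, whereas the infliximab libraries did not. With WT at the floor of 3 reads per library, the hTNFtg mean of 15.7 ± 15.0 was at least 6.21 times the WT mean. Without hTNFtg replicate 1 it was at least 3.17 times. These bounds hold for the means of these libraries only and leave out their spread. The fitted log2 fold change was 2.47, with a 95% interval from 0.08 to 4.86, and hTNFtg replicate 3 was itself within 3 reads. The call in hTNFtg (limma adjusted p = 0.620) was lost when any of WT replicates 1, 2 and 3 or hTNFtg replicates 1 and 2 was left out, with a fitted log2 fold change of 1.64 without hTNFtg replicate 1.

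Has3 (ENSMUSG00000031910, chr8:106870242-106884566, plus strand), whose enzyme makes shorter chains, had the highest value of the 10 rows in each WT library, but these reads could not be assigned to it. Its row matched that of Chtf8, a gene on the opposite strand, in 6 of 9 libraries exactly and differed by at most 2 normalized counts in the others. The genes share chr8:106883863-106884566, 704 bases in which 3 of the 5 coding transcripts of Chtf8 end. Of the 3 coding transcripts of Has3, 1 ends there, with a last exon of 352 bases, and the next ends 961 bases before the shared stretch. Has3 stood at 316, 417 and 305 in WT, at 118, 261 and 530 in hTNFtg and at 379, 440 and 484 with infliximab, and Chtf8 at 316, 417 and 306, at 118, 261 and 530 and at 380, 440 and 486. The groups overlapped, and the log2 fold change in hTNFtg was -0.43 for Has3 (95% interval -1.44 to 0.58) and -0.43 for Chtf8. Over the tables, 108 of 802 pairs of genes that meet tail to tail on opposite strands had the same values in all 9 libraries, within 2% or 2 normalized counts.

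**Figure D2:**
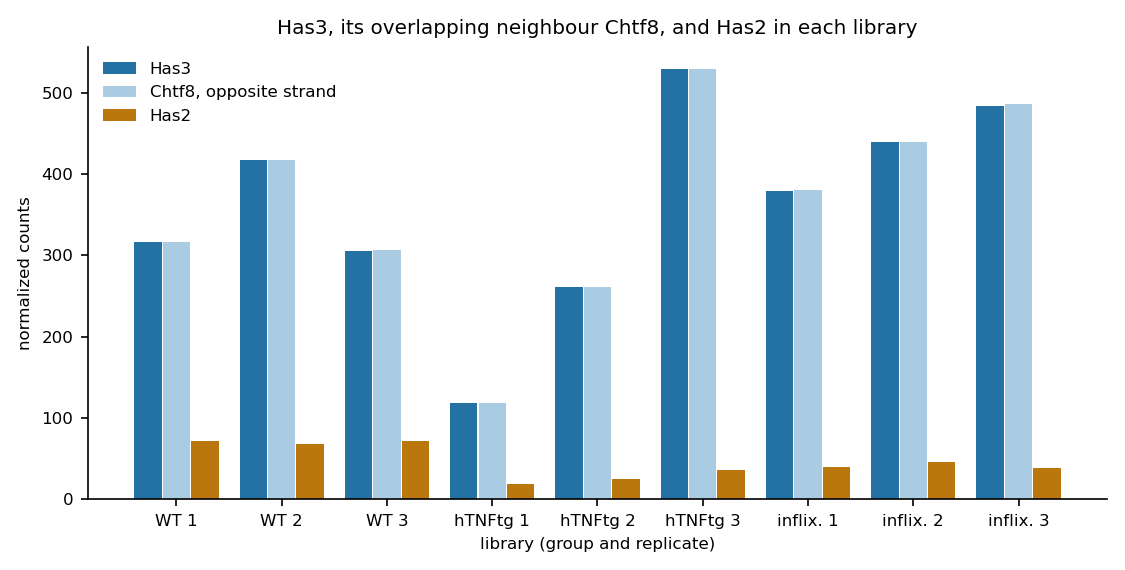
Normalized counts of Has3, of Chtf8 on the opposite strand and of Has2 on the y axis in each of the 9 libraries on the x axis, with bars from 0. The Has3 and Chtf8 bars are level in every library, from 118 in hTNFtg replicate 1 to 530 in hTNFtg replicate 3, while Has2 stays between 19 and 72.

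With this limit, the make-up of the synthase reads can be given only as the rows stand. Has2 made up 18.3%, 14.0% and 19.1% of the sum of the 3 synthase rows in WT, 11.3%, 8.31% and 6.35% in hTNFtg and 9.39%, 9.31% and 7.22% with infliximab. This share was lower in all 6 hTNFtg libraries than in any WT library. If the Has3 row is left aside, Has2 was higher than Has1 in every library but hTNFtg replicate 1, where they rest on 3 and 5 reads.

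Neither Ugdh nor Tnfaip6 passed the rule in hTNFtg. Ugdh (ENSMUSG00000029201, chr5:65413221-65435949, minus strand) stood at 98, 104 and 95 in WT, 187, 130 and 132 in hTNFtg and 147, 124 and 145 with infliximab. Every library of both hTNFtg groups was above the WT range, but the log2 fold change of 0.57 in hTNFtg (95% interval -0.09 to 1.23, limma adjusted p = 0.726) fell short of it. Tnfaip6 (ENSMUSG00000053475, chr2:52038009-52056686, plus strand), whose protein TSG-6 moves heavy chains of inter-alpha-inhibitor onto hyaluronan, stood at 17, 25 and 31 in WT, 12, 12 and 13 in hTNFtg and 27, 19 and 13 with infliximab. All hTNFtg libraries were below all WT libraries. The log2 fold change of Tnfaip6 was -0.89 (95% interval -2.11 to 0.33, limma adjusted p = 0.726), and its value in hTNFtg replicate 1 rests on 2 reads. In all, 4 of 10 members were higher without overlap in hTNFtg, where 5.63% of all genes were, and 2 of 10 were lower without overlap, where 5.8% were.

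The hyaluronidases Hyal2 and Hyal1 lie next to each other on chromosome 9, with 4147 bases between them. Hyal2 (ENSMUSG00000010047, chr9:107567945-107572779, plus strand), which is anchored to the cell surface, stood at 72, 61 and 60 in WT, 50, 67 and 106 in hTNFtg and 50, 41 and 75 with infliximab. Hyal1 (ENSMUSG00000010051, chr9:107576927-107581710, plus strand) stood at 12, 11 and 17 in WT, 0, 14 and 24 in hTNFtg and 20, 14 and 24 with infliximab. Groups overlapped for both genes, and the log2 fold changes in hTNFtg were 0.14 for Hyal2 (95% interval -0.68 to 0.96) and -0.97 for Hyal1 (-3.38 to 1.44). The value of 0 for Hyal1 comes from the shallow library, and without it the log2 fold change was 0.46. The 3′ end of Hyal1 also lies within Nat6 and Hyal3 on the same strand. Reads there may count for those genes as well as for Hyal1, which was not tested.

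**Figure D3:**
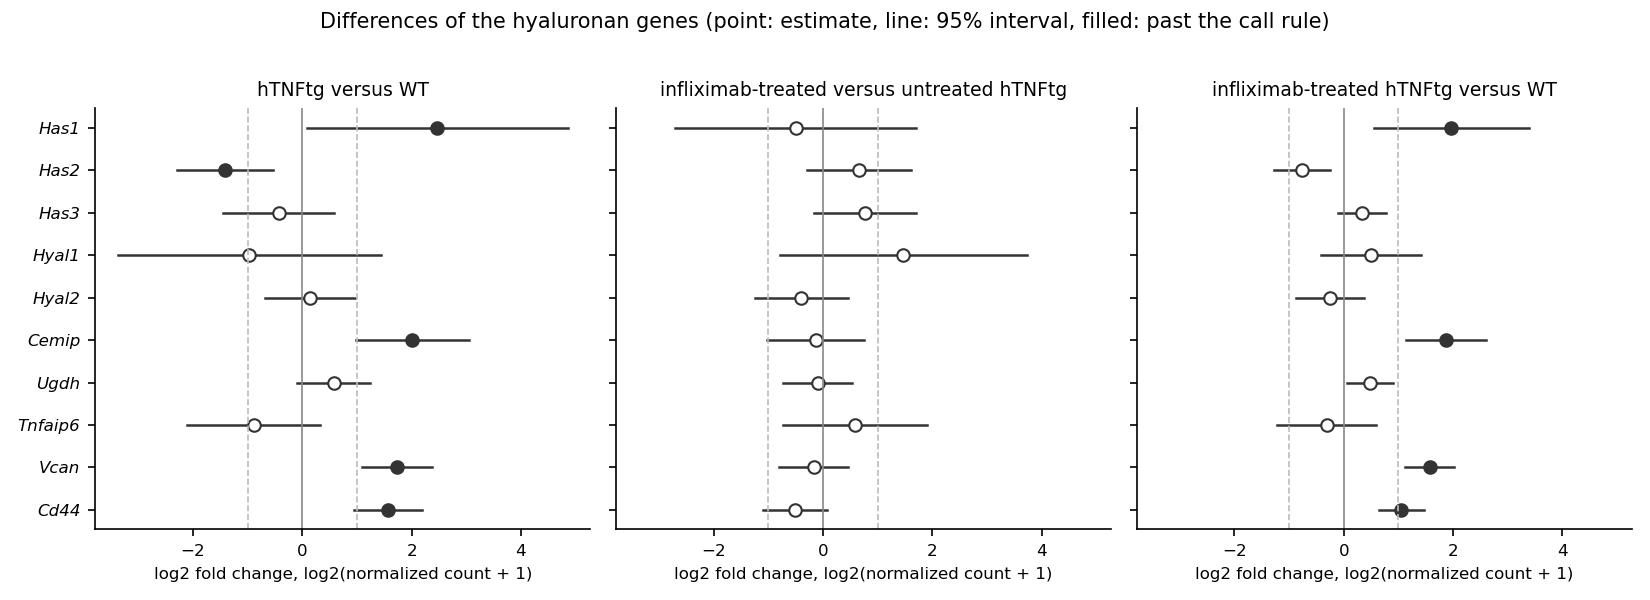
Log2 fold changes of the 10 members on the x axis, with 95% intervals from limma as lines, in the 3 comparisons. Filled points passed the call rule and dashed lines mark 1 in size. There are 5 filled points in hTNFtg versus WT, none under infliximab against untreated hTNFtg, and 4 in infliximab-treated hTNFtg versus WT.

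To ask whether blocking TNF for 48 hours moved these genes, infliximab-treated and untreated hTNFtg libraries were compared. None of the 10 members passed the rule, which called 2.43% of 28540 genes (1.49% as raised and 0.936% as lowered), and none had a limma P under 0.05, which 3.59% of genes had. At an adjusted p under 0.05 limma called 0 of all genes, with 1026 at an unadjusted P under 0.05, while edgeR on approximate reads called 165 and limma with robust eBayes 3, none of them a member. The members' log2 fold changes ran from -0.51 to 1.46 with a median of -0.12. The highest, that of Hyal1, was 0.039 without the shallow hTNFtg replicate 1 and 0.35 by edgeR on approximate reads. Cd44 was lower in all 3 treated libraries than in any untreated one, with a log2 fold change of -0.51 (SE 0.27, 95% interval -1.10 to 0.08, limma adjusted p = 0.803). Has2 was higher in all 3, with a log2 fold change of 0.66 (SE 0.44, 95% interval -0.30 to 1.61, limma adjusted p = 0.803). These are 1 of 10 lower and 1 of 10 higher without overlap, beside 3.44% and 3.99% of all genes.

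For the other members the treated and untreated libraries overlapped. The log2 fold change was -0.17 for Vcan (95% interval -0.80 to 0.46), -0.14 for Cemip (-1.02 to 0.75) and -0.09 for Ugdh (-0.72 to 0.54). The intervals of Has1 (-2.71 to 1.70) and Hyal1 (-0.80 to 3.72) were wide. Tnfaip6, at 0.58 (-0.74 to 1.89), and Hyal2, at -0.40 (-1.25 to 0.46), did not pass either. The Has3 row, whose reads could not be told apart from those of Chtf8, was at 0.77 and passed the rule at 1.29 when hTNFtg replicate 3 was left out.

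Infliximab-treated hTNFtg SFs were also compared with WT SFs, using libraries that enter the other comparisons as well. Has1, Cemip, Vcan and Cd44 were raised, 4 of 10 members, where the rule called 6.81% of 28243 genes (3.86% as raised and 2.95% as lowered), and no member was lowered. At an adjusted p under 0.05, 3 of 10 members were called, against 0.74% of all genes, also 3 by edgeR, 1 (Vcan) with all 9 libraries in one fit and 0 with any 1 library left out. Vcan had a log2 fold change of 1.57 (SE 0.20, limma adjusted p = 0.0180), with a treated mean of 531 ± 91.1, or 2.98 times WT. Cemip had 1.87 (SE 0.32, limma adjusted p = 0.0386), with a treated mean of 450 ± 119, or 3.51 times WT. Cd44 had 1.05 (SE 0.18, limma adjusted p = 0.0394), with 561 ± 40.3, or 2.06 times WT, and it dropped below the size the rule asks for without WT replicate 1 (0.93) or infliximab replicate 3 (0.997), the library with the high hepatocyte sum. With any 1 library left out, the adjusted p of Vcan ran from 0.0819 to 0.335, that of Cemip from 0.0870 to 0.345 and that of Cd44 from 0.101 to 0.343. Has1, with a mean of 6.33 ± 2.08 against WT at the floor, had a mean at least 2.51 times that of WT. Its log2 fold change was 1.97 (95% interval 0.55 to 3.38, limma adjusted p = 0.231).

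Has2 and Ugdh differed from WT in the treated SFs at an unadjusted P under 0.05 but by less than the size the rule asks for. Has2 was at -0.76 (SE 0.23, limma adjusted p = 0.201), with a WT mean 1.70 times the treated mean of 41.3 ± 4.16. Ugdh was at 0.48 (SE 0.19, limma adjusted p = 0.343), with a treated mean of 139 ± 12.7 against 99.0 ± 4.58 in WT. In this comparison 5 of 10 members were higher without overlap and 1 of 10 was lower, beside 7.14% and 7.07% of all genes. Tnfaip6 was at -0.31, Hyal1 at 0.50, Hyal2 at -0.25 and the Has3 row at 0.33, all with overlapping groups.

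**Figure D4:**
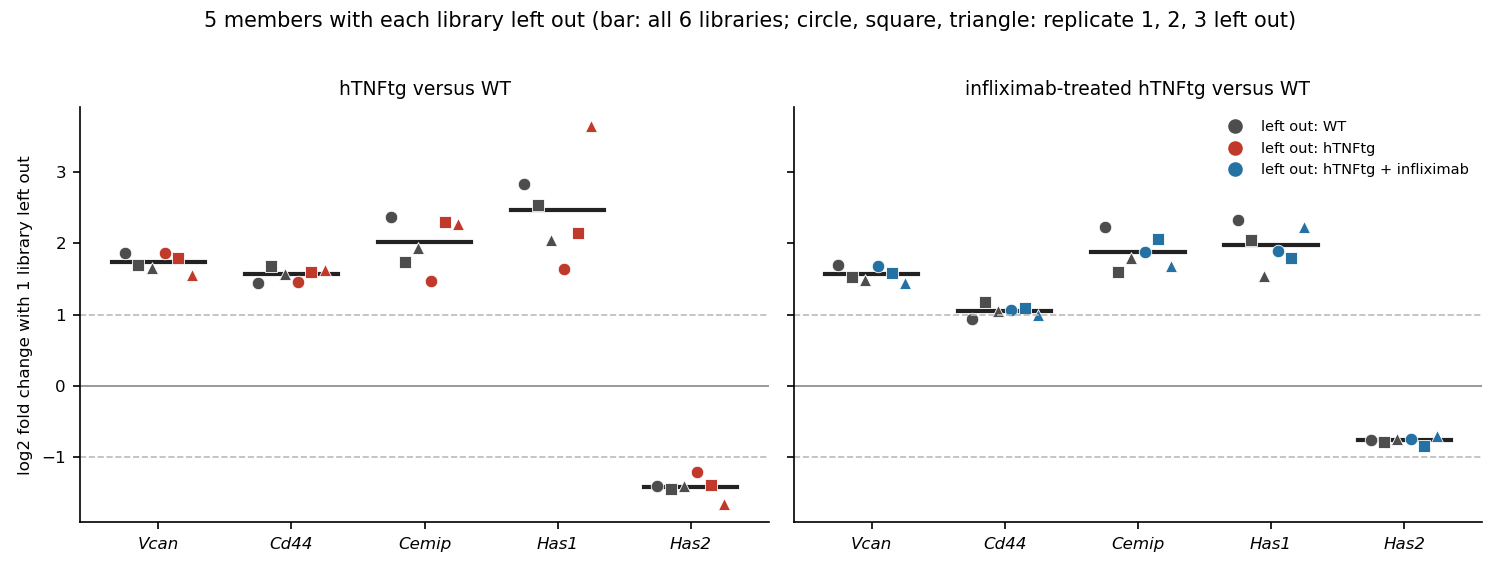
Log2 fold changes against WT on the y axis for 5 members on the x axis, in hTNFtg and in infliximab-treated hTNFtg SFs. The bar is the value with all 6 libraries, and each symbol is the value with the library of that colour and shape left out. Vcan stays between 1.55 and 1.86 in hTNFtg, Has1 runs from 1.64 to 3.64, and Has2 stays below 0 in both panels.

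The order of the members within each library is given as a description. In each WT library the Has3 row, Cd44 and Vcan held the highest places, in this order. In hTNFtg the highest row was Cemip in replicate 1, Cd44 in replicate 2 and Vcan in replicate 3, and with infliximab Cd44 in replicates 1 and 2 and Vcan in replicate 3. Has1, Tnfaip6 and Hyal1 were the 3 lowest in all WT and infliximab libraries. In hTNFtg replicate 1 Has1 stood above Has2, Tnfaip6 and Hyal1, all of them at no more than 5 reads.

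The genes whose log2 values ran most like each called member with a mean of at least 10 normalized counts over the 9 libraries were taken from 13599 genes, as a description only, since these libraries share groups and depth. For Vcan they were Ccl8 (Pearson r = 0.99), Ptgs2 (0.98) and Rin1 (0.98). Ptgs2, which encodes cyclooxygenase-2, stood at 13 to 28 in WT, 125 to 214 in hTNFtg and 74 to 189 with infliximab. For Cd44 they were Kcnn4, Cdk6 and Ebi3 (each 0.99), with Kcnn4 at 9 to 20, 135 to 187 and 64 to 103. For Cemip they were Dnmt3a (0.99), Sppl2a (0.98) and Tpm1 (0.97). For Has2, which ran the other way, they were Prickle1 (0.98), Zfp703 (0.98) and Fat4 (0.97), with Fat4 at 48 to 80 in WT, 6 to 13 in hTNFtg and 19 to 29 with infliximab.

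Around the 10 members, a list of 36 other genes of the pathway was followed, all of them in the tables and 21 of them with a mean of at least 10 normalized counts. In hTNFtg versus WT, 30 could be tested, of which 2 rose (Stab1 and Hapln4) and 2 fell (Acan and Hapln3), or 4 of 30 beside 6.39% of all genes, with a median log2 fold change of -0.22 beside 0.00 over all genes, or -0.10 when genes with a group at the floor are set to their bound. Under infliximab against untreated hTNFtg, 0 of 32 passed the rule, beside 2.43% of all genes. In infliximab-treated hTNFtg versus WT, 1 of 31 rose (Hapln4) and 3 fell (Acan, Hapln3 and Ncan), or 4 of 31 beside 6.81% of all genes, with a median of -0.16, or -0.13 with such genes at their bound. In the main limma fits, no gene of the list had an adjusted p under 0.05 in any comparison. For hTNFtg versus WT, Stab1 had 0.0112 by limma with array quality weights and 0.0277 with all 9 libraries in one fit. Acan had 0.0344 there with array quality weights, and Hapln3 0.0484 with robust eBayes, both by limma. In treated hTNFtg versus WT, other limma fits gave adjusted p as low as 0.00348 for Acan and 0.00546 for Hapln3. By edgeR on approximate reads, 2 genes of the list had an adjusted p under 0.05 in hTNFtg versus WT (Acan and Hapln3). That count was 1 under infliximab against untreated hTNFtg (Ambp) and 4 in treated hTNFtg versus WT (Stab1, Acan, Hapln3 and Ambp). Ambp, which encodes the bikunin chain of inter-alpha-inhibitor and is made by hepatocytes, stood at 63 in infliximab replicate 3, the library with the high hepatocyte sum, and at 0 to 4 in the other 8.

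Among receptors, Stab1, a scavenger receptor related to the clearance receptor Stab2, stood at 107, 110 and 83 in WT, 243, 229 and 248 in hTNFtg and 163, 149 and 229 with infliximab. Its log2 fold change in hTNFtg was 1.26 (SE 0.28, limma adjusted p = 0.0990), and 0.83 in treated SFs against WT, below the size the rule asks for. Stab1 is a gene of macrophages and endothelium. The leukocyte marker sums, given above, were higher in both hTNFtg groups than in WT. The 7 endothelial markers summed to 3 to 6 in WT, 6 to 12 in hTNFtg and 2 to 7 with infliximab. The part of either cell type in the Stab1 difference was not tested. Lyve1, a receptor of lymphatic endothelium, was at 0 in 8 libraries. In hTNFtg versus WT, 1 of the 4 receptors tested, Stab1, passed the rule, beside 6.39% of all genes, and 0 of 5 passed it in each of the other comparisons.

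Of the proteoglycans and link proteins that gather on hyaluronan, 1 rose and 2 fell among 7 tested in hTNFtg, beside 3.35% raised and 3.04% lowered of all genes. Acan, the aggrecan of cartilage, stood at 16, 16 and 5 in WT, 0, 1 and 0 in hTNFtg and 0, 4 and 0 with infliximab. Hapln3, a link protein, stood at 24, 15 and 13, at 0, 6 and 0 and at 0, 4 and 7. Both are low genes, with means under 10, and fell with log2 fold changes of -3.25 and -3.21 in hTNFtg. Comp, Sox9 and Col9a1 were also lower there, while Col2a1 and Hapln1 overlapped, as given above. With hTNFtg at the floor of 3 reads per library, Acan was at least 1.62-fold lower, or at least 5.92-fold lower without the shallow hTNFtg replicate 1. Hapln3 ran from -4.15 to -2.75 with any 1 library left out and from -3.87 to -1.75 over the other alternatives. Its 0 in hTNFtg replicate 1 lies below the 18.7 normalized counts that 3 reads stand at there. Ncan stood at 22, 13 and 18 in WT, at 6, 9 and 9 in untreated hTNFtg SFs and at 12, 8 and 3 in treated ones. Both hTNFtg groups lay below all WT libraries, but the 6 in hTNFtg replicate 1 rests on 1 read. In that library 3 reads stand at 18.7, above the WT values of 13 and 18. Ncan was at -1.04 in hTNFtg (limma adjusted p = 0.726), which did not pass the rule. In treated SFs against WT it was at -1.24 (limma adjusted p = 0.414), where its call was lost in 5 of 6 fits with a library left out. Hapln4 stood at 3, 12 and 1 in WT and at 19 (on 3 reads), 25 and 13 in hTNFtg (2.04, limma adjusted p = 0.570) and was called in 2 of 6 such fits. In treated SFs it stood at 12, 14 and 17, a range that touched that of WT, and its call there (1.69, limma adjusted p = 0.376) held in 1 of 6 such fits and under 7 of 9 other alternatives.

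None of the 7 enzymes that supply UDP-sugars, all of them above a mean of 10, passed the rule in any comparison. Gfpt1, which opens the hexosamine pathway, stood highest of them at 526, 406 and 313 in WT, 218, 426 and 328 in hTNFtg and 432, 487 and 469 with infliximab, with a log2 fold change of -0.38 in hTNFtg. No hyaluronidase or exoglycosidase of the list passed either. Tmem2, a hyaluronidase of the cell surface, stood at 637, 349 and 418, at 573, 304 and 192 and at 346, 349 and 258, with a log2 fold change of -0.49 in hTNFtg (95% interval -1.38 to 0.40). Hexa, a lysosomal enzyme that trims hyaluronan fragments, stood at 953, 1112 and 1219, at 754, 712 and 1464 and at 696, 680 and 998. Hyal4, Hyal5, Hyal6 and Spam1 were at 0 in all 9 libraries. Ptx3, a pentraxin that cross-links heavy chains on hyaluronan, was the highest gene of the list at 9297, 6229 and 5869 in WT, 9180, 5981 and 3992 in hTNFtg and 7654, 5754 and 3416 with infliximab, with overlapping groups and a log2 fold change of -0.21 in hTNFtg (95% interval -1.31 to 0.89).

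**Figure D5:**
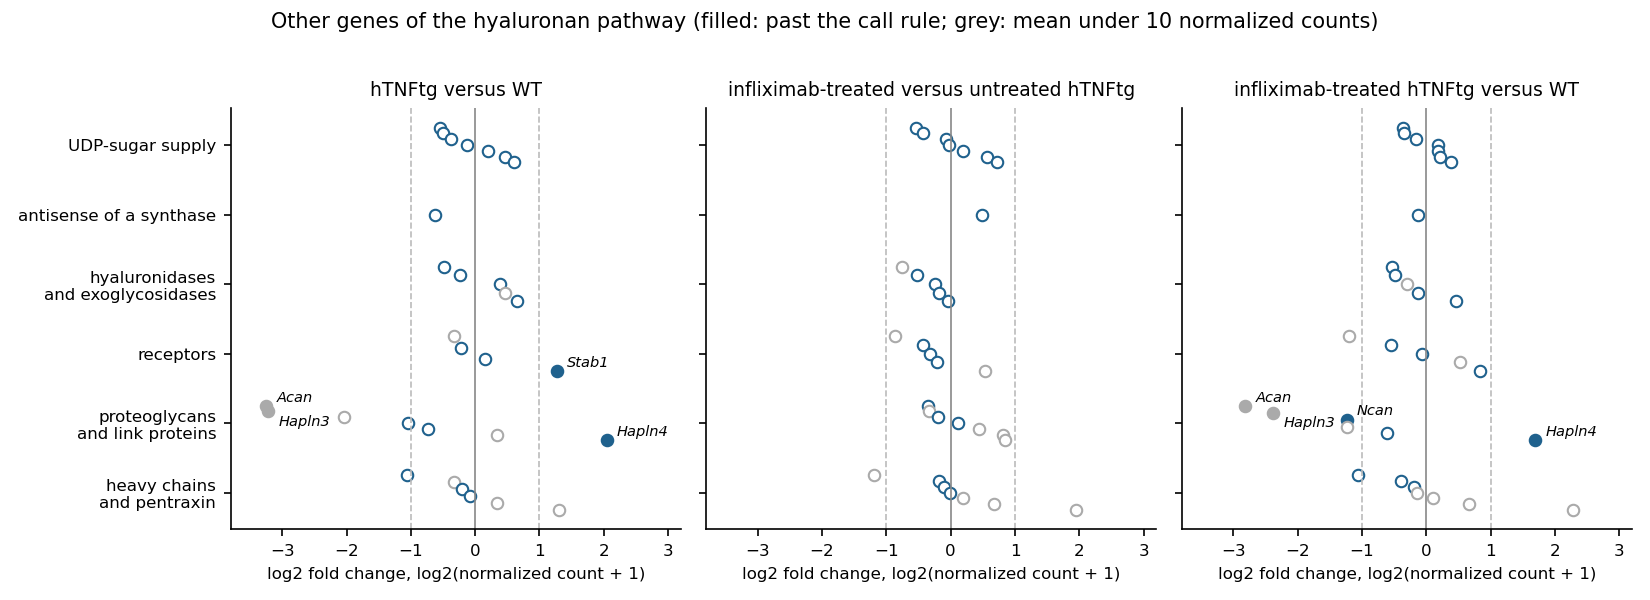
Log2 fold changes of the other pathway genes on the x axis, by class on the y axis, in the 3 comparisons. Filled points passed the call rule, grey points have a mean under 10 normalized counts, and dashed lines mark 1 in size. The UDP-sugar enzymes lie within 1 of 0 in every panel, and the filled points are Stab1, Hapln4, Acan and Hapln3 in hTNFtg and Hapln4, Acan, Hapln3 and Ncan in treated SFs against WT.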

How the data were processed

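The 10 members, the list of 36 further genes and the markers were chosen with earlier results of these data known. Per the methods, QuantSeq 3′ libraries of 3 biological replicates per group were sequenced on an Ion Proton, mapped to mm10 with TopHat2 and then Bowtie2, counted per gene with GenomicRanges and normalized, with DESeq run through metaseqR for the study's own comparisons. The score the authors deposited is a normalized count per gene, in whole numbers, and reads were estimated by taking 1 scaling factor per library. In hTNFtg replicate 1 the deposited signal amounts to whole reads times a factor: 100% of its low values are multiples of 6.23, so about 613348 reads, and the other libraries held 3829179 to 9015602 by the same estimate, which could not be tested in the 7 libraries where 1 read is worth under 1. The 12 rpgm columns and the authors' own comparisons (fold changes, p-values) were not used. Both tables were joined by gene identifier.

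Groups were compared with limma 3.58.1 (lmFit, eBayes with trend) in R 4.3.3 on log2(normalized count + 1), fitted on the 6 libraries of a comparison, leaving out genes at 0 in all of them. A count model had not been planned as the main test, since these are normalized values, and edgeR 4.0.16 on approximate reads was an alternative. A call, the study's own rule, asks for an unadjusted P under 0.05 and a difference of 1 or more on the log2 scale, and adjusted p-values are Benjamini-Hochberg over all genes. The floor of a group is 3 reads in each of its libraries. All members were named, and of the further list every gene called with a mean of at least 10, plus the 4 highest others. Acan, Hapln3, Ambp, Lyve1 and the genes at 0 were named after their values were seen. The fits and the read estimate were tested on simulated data.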

Additional observations from a re-analysis of the deposited data

How the results depend on the processing

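The called members kept their direction under every alternative run, and Has2, Cemip, Vcan and Cd44 in hTNFtg, and Cemip and Vcan in treated SFs against WT, also kept their call in all 16. Has1 lost its call in hTNFtg under quantile normalization (2.39) and, in treated SFs against WT, with a pseudocount of 5 (0.91) or all 9 libraries in one fit (1.97). Cd44 in treated SFs lost its call with array quality weights (0.94). In hTNFtg, the log2 fold change of Hyal1 turned to 0.20 by edgeR on approximate reads. Under infliximab against untreated hTNFtg, Cemip turned to 0.26 and Ugdh to 0.036 with array quality weights. The cause was not tested in any of these cases.

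Genes called in hTNFtg numbered 1823, but 1183 among genes with a mean of at least 10 and 3540 with array quality weights. Genes with an adjusted p under 0.05 numbered 137, but 1004 with array quality weights, 461 with robust eBayes, 381 with all 9 libraries in one fit and 913 by edgeR. Under infliximab against untreated hTNFtg, 693 genes were called, but 351 with a pseudocount of 5, 314 with a mean of at least 10, 2125 with array quality weights, 1050 with all 9 libraries in one fit and 1228 by edgeR. Those with an adjusted p under 0.05 numbered 0, but 65 with array quality weights, 3 with robust eBayes, 3 with all 9 libraries in one fit and 165 by edgeR. In treated hTNFtg against WT, 1923 were called, but 1057 with a pseudocount of 5 and 1056 with a mean of at least 10. There, 209 had an adjusted p under 0.05, but 488 with a mean of at least 10, 378 with array quality weights, 1182 with robust eBayes, 69 with all 9 libraries in one fit and 1325 by edgeR.

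With each library left out in turn, genes with an adjusted p under 0.05 ran from 1 to 44 in hTNFtg and from 0 to 1 in treated SFs against WT. Under infliximab against untreated hTNFtg, genes called ran from 418 to 1411 and members called from 0 to 1. In the same way, log2 fold changes in hTNFtg ran from -0.96 to 0.12 for Has3, from -1.87 to 0.46 for Hyal1, from -0.14 to 0.39 for Hyal2 and from -0.51 to 0.086 for Ptx3. Under infliximab they ran from -1.67 to 0.33 for Has1, from 0.039 to 2.36 for Hyal1 and from -0.42 to 0.40 for Cemip. The range was -0.18 to 0.077 for Ugdh and -0.30 to 0.016 for Vcan.

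The replicate numbers are not known to mark shared animals. Over all comparisons, same-numbered libraries deviated together in some pairs only (Pearson r from -0.15 to 0.35), so the numbers were not taken to pair the libraries. Between untreated and infliximab-treated hTNFtg, r was 0.070, 0.20 and 0.27 for same-numbered libraries and -0.26 to 0.13 for the others. Whether cultures were shared between those groups cannot be told from this. With the replicate block, 0 genes, and so 0 members, had an adjusted p under 0.05 in hTNFtg versus WT and in treated hTNFtg versus WT, and the number of members called by the rule was as without it. Among the members, the depth of hTNFtg replicate 1 limits Has1, Has2, Tnfaip6 and Hyal1, which rest on at most 5 reads there. Of the further list, it also limits Ncan, Hapln4, Acan and Hapln3, at no more than 3 reads there.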
